A study of Mus musculus with 10 samples.

Results

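The germ cell RNA-binding and piRNA genes described here are the 8 genes Dazl, Ddx4, Dnd1, Nanos3, Mael, Piwil2, Tdrd1 and Morc1, chosen by gene symbol and read through every probe set that the probe table pairs with that symbol alone. A probe set is the group of short probes with which an Affymetrix GeneChip array reads a transcript. Of the 8 genes, 7 had a probe set, 8 probe sets in all out of 45101 on the array, since Dazl had 2 and the probe table lists none for Nanos3. The arrays measured total RNA of 3 groups of mouse cells. AG-haESC are haploid embryonic stem cells with a paternal genome only, from androgenetic blastocysts of C57BL/6J background, with 5 lines on 1 array each, at passage 12 to 15. The lines are numbered here in the order of the series, so that lines 1 to 5 are AGH-OG-1, AGH-OG-2, AGH-EG-1, AGH-OG-3 and AGH-OG-4. The OG lines carried an Oct4-EGFP transgene and AGH-EG-1 an Actin-EGFP transgene. The E14 cells, of a single male diploid line of embryonic stem cells, were wild type 129/Sv at passage 17 and filled 3 arrays. MEF are wild type B6D2F1 fibroblasts of passage 2 from a male d13.5 embryo, on 2 arrays. All cells were stained with Hoechst 33342 and sorted, AG-haESC on the haploid peak and E14 and MEF on the diploid peak. AG-haESC were grown on feeder cells with CHIR99021 and PD0325901, while for E14 and MEF no medium of their own is stated in these sources. The haploid and diploid stem cells differ at once in ploidy, parental origin of the genome, strain, transgene and passage, and perhaps in medium, so the effects of these cannot be told apart.

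These genes act in germ cells. One arm binds messenger RNAs and sets which of them are translated or destroyed in primordial germ cells and in meiosis. The other arm makes and uses piRNAs, small RNAs held by PIWI proteins that guide the silencing of transposons in the male germline. Several of them have CpG-rich promoters that are methylated and silent in somatic tissues, and Dazl, Ddx4 and Mael are known for this dependence on DNA methylation.

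The 250 bases before the annotated start of those 3 genes are shown because their signals are set side by side below. The sequences are those of RefSeq on build GRCm38.p6, all on the minus strand, 5′ to 3′ along the gene, with each CpG in capitals. The windows are chr17:50293621-50293870 for Dazl, chr13:112652311-112652560 for Ddx4 and chr1:166238745-166238994 for Mael.
Dazl: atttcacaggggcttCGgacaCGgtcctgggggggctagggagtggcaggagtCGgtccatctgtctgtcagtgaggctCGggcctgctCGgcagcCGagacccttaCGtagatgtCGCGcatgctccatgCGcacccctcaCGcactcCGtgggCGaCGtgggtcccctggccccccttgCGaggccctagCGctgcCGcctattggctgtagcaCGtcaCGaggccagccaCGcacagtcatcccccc
Ddx4: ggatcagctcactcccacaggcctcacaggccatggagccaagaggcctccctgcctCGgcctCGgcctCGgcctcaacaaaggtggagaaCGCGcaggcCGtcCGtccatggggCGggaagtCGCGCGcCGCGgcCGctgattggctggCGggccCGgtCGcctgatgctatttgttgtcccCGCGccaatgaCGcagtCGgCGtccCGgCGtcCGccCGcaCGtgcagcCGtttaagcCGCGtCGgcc
Mael: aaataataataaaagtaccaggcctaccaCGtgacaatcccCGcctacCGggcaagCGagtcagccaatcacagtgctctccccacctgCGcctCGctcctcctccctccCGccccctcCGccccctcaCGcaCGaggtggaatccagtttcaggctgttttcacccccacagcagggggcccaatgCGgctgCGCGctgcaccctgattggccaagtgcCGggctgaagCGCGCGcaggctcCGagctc
Dazl has 20 CpG in this window, Ddx4 31 and Mael 18, against a median of 6 over 32851 promoter windows of the same length. At least as many were found in 17.9%, 5.19% and 21.7% of those windows. Nanos3 has 3 CpG in its window, as many or more being found in 71% of windows, and the 3 annotated starts of Tdrd1 have 11, 22 and 3. Dnd1, Piwil2 and Morc1 have no entry. A core motif of E2F factors, GCGGGA on either strand, occurs 1 time in the Ddx4 window and 1 time in the Mael window, and in 16.9% of all windows. The E-box CACGTG, which reads the same on both strands, also occurs 1 time in each of these, and in 6.02% of all windows. Neither motif is in the Dazl window. A match in letters is a description, and neither methylation nor binding was measured here.

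The marker of stem cells followed the labels. Pou5f1, the core factor of pluripotent cells, had log2 signals from 13.35 to 13.84 in the 8 stem cell arrays against 2.63 and 2.65 in MEF. Array medians lay between 5.81 and 6.09 on the log2 scale, and a signal below its array's median is treated here as not told from background. Across genes, Pearson's r was 0.968 between E14 replicates 1 and 2 and between 0.922 and 0.924 for E14 replicate 3 with either of them, so E14 replicate 3 stood apart from its group. Its signals are given apart for the 8 genes, while a mean or a difference with E14 holds all 3 arrays unless said otherwise. The E14 arrays are all of 1 line, so no test against E14 holds the spread between diploid lines.

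All 6 genes that passed the filter on dim probe sets were read well above the array median in every stem cell array and below it in both MEF arrays. The passing of that filter rests on the stem cell arrays, so the count against MEF is a description of these genes and supports nothing further. In AG-haESC against E14, 1 of the 6, Dnd1, was lower, and none was higher by limma at 2-fold. In E14 replicate 3 the signals of Dazl, Mael, Piwil2 and Ddx4 were each at least 2-fold below those of the other E14 arrays, while Dnd1 and Morc1 were not lower. In sorted bulk cells, fewer expressing cells and less RNA per cell cannot be told apart.

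**Figure D1:**
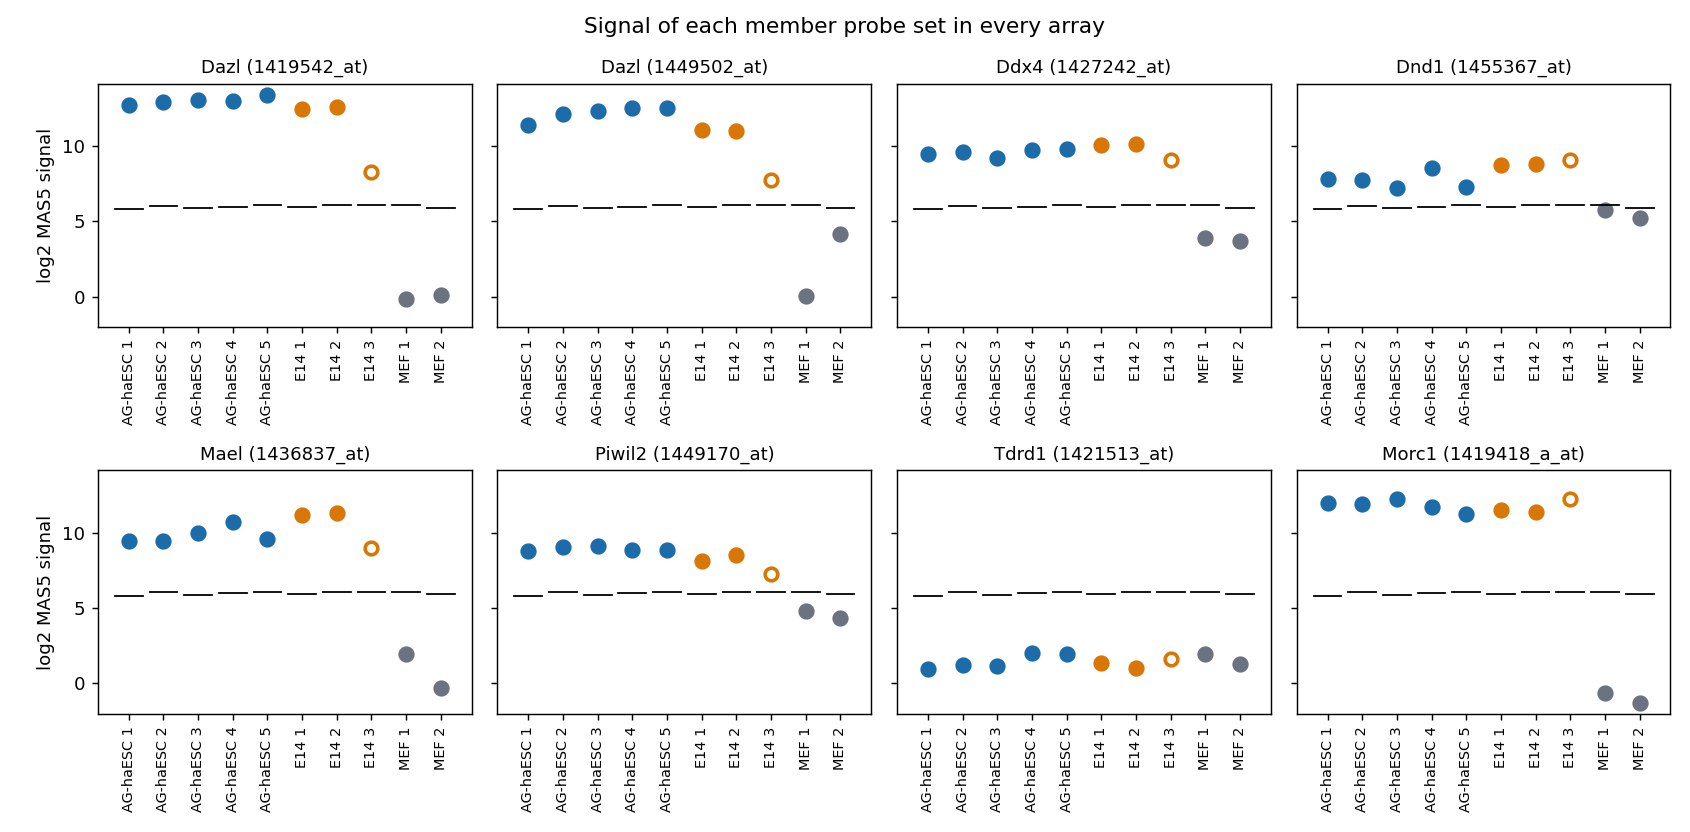
Log2 MAS5 signal (y axis) of each of the 8 probe sets in every array (x axis), blue for AG-haESC, orange for E14 with replicate 3 as an open circle, grey for MEF; black bars mark each array's median. The open circle of Dazl (1419542_at) stands at 8.27, far under the filled E14 circles at 12.44 and 12.61, and Tdrd1 lies below the array median throughout.

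Dazl encodes an RNA-binding protein that promotes translation of its targets and is needed for germ cell development. On its brighter probe set, 1419542_at, log2 signals were 12.70, 12.95, 13.07, 12.98 and 13.41 in AG-haESC lines 1 to 5, against 12.44 and 12.61 in E14 replicates 1 and 2 and 8.27 in E14 replicate 3. In MEF they were -0.14 and 0.13. The 5 haploid lines lay above every E14 array, by a narrow margin over replicates 1 and 2 and by a wide one over replicate 3. The difference between AG-haESC and E14 was 1.92 ± 0.77 log2 units (SE), which missed the threshold (adjusted p = 0.117). Without E14 replicate 3 it was 0.50 ± 0.18 (adjusted p = 0.0735), so on this probe set that array alone sets most of its size. The other probe set, 1449502_at, also had every haploid line above every E14 array and E14 replicate 3 lowest among the stem cells, with 11.41, 12.13, 12.34, 12.51 and 12.55 in AG-haESC against 11.04, 11.00 and 7.77 in E14 replicates 1, 2 and 3, and its difference of 2.25 ± 0.88 missed it too (adjusted p = 0.122 over all 27505 probe sets kept, of which 4.37% were called higher). Here the haploid mean stayed 1.16 log2 units above that of E14 replicates 1 and 2, more than 2-fold. In MEF it read 0.01 and 4.17.

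Dnd1 encodes an RNA-binding protein that keeps primordial germ cells alive, and whose loss in mice leads to testicular tumours. Its signals were 7.79, 7.75, 7.23, 8.53 and 7.26 in AG-haESC, against 8.75, 8.83 and 9.07 in E14 and 5.76 and 5.22 in MEF. The groups of stem cells did not overlap, although AG-haESC line 4 came close to the lowest E14 array. The mean was 7.71 ± 0.53 in AG-haESC and 8.89 ± 0.16 in E14 (SD, n = 5 and n = 3), a difference of -1.17 ± 0.30 (adjusted p = 0.0223), or 2.26-fold lower. E14 replicate 3 was no exception here, and without it the difference was -1.08 ± 0.34 (adjusted p = 0.0445). The call was lost without E14 replicate 1 (adjusted p = 0.0553) or E14 replicate 2 (0.0636). Over all 13251 genes tested, 3.74% were called lower and 4.58% higher in AG-haESC, and with 6 genes a single call is too few to set them apart from that share. Nanos3, the zinc finger RNA-binding protein that protects primordial germ cells from death, has no listed probe set and was not analysed here.

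Ddx4, the mouse vasa homologue, is a DEAD-box RNA helicase of the germ granules in which piRNAs are made. It read 9.44, 9.58, 9.17, 9.72 and 9.83 in AG-haESC, against 10.08 and 10.16 in E14 replicates 1 and 2 and 9.05 in E14 replicate 3, and 3.89 and 3.72 in MEF. The haploid lines lay between E14 replicate 3 below and the other E14 arrays above. The difference was -0.21 ± 0.26 (adjusted p = 0.625), and -0.57 ± 0.20 without E14 replicate 3 (adjusted p = 0.0688).

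Mael encodes Maelstrom, a germ granule protein needed for transposon silencing in spermatogenesis. It read 9.43, 9.45, 9.99, 10.73 and 9.61 in AG-haESC, against 11.20 and 11.34 in E14 replicates 1 and 2 and 8.99 in E14 replicate 3, and 1.95 and -0.30 in MEF. As with Ddx4, the haploid lines lay below E14 replicates 1 and 2 and above E14 replicate 3. The difference was -0.67 ± 0.60 with all E14 arrays (adjusted p = 0.491) and -1.43 ± 0.51 without replicate 3 (adjusted p = 0.0698). With weights that give less to arrays far from their group it was -1.44 ± 0.47 and was called lower (adjusted p = 0.032).

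Piwil2, also named MILI, is the PIWI protein that binds piRNAs in fetal and adult male germ cells. Its signals were 8.78, 9.06, 9.09, 8.83 and 8.84 in AG-haESC, against 8.13 and 8.54 in E14 replicates 1 and 2 and 7.23 in E14 replicate 3, and 4.80 and 4.36 in MEF. The haploid lines were close together and all above E14. The means were 8.92 ± 0.14 in AG-haESC and 7.97 ± 0.67 in E14 (SD, n = 5 and n = 3), and the difference of 0.95 ± 0.28 passed the adjusted p (0.0388) but stayed just under 2-fold. With Dnd1 this made 2 of 6 past the adjusted p alone, as 15.9% of all genes were. It was 0.58 ± 0.22 without E14 replicate 3 (adjusted p = 0.0799), 1.04 ± 0.33 without replicate 1 (0.0772) and 1.24 ± 0.28 without replicate 2 (0.0208), where it was called higher. Leaving out any single AG-haESC line left it short of the threshold too, with adjusted p between 0.0536 and 0.0795, as did testing with no filter (0.0549).

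Tdrd1, a Tudor domain protein that binds methylated arginines of PIWI proteins, was read by 1 probe set that lay below the array median in all 10 arrays. Its signals were 0.95 to 2.03 in AG-haESC, 1.01 to 1.58 in E14 and 1.30 and 1.97 in MEF. No level of Tdrd1 was told from background in any group, and it was not tested.

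Morc1, an ATPase of the microrchidia family that represses transposons in male germ cells, read 11.96, 11.88, 12.25, 11.73 and 11.24 in AG-haESC, against 11.52, 11.38 and 12.25 in E14 and -0.64 and -1.28 in MEF. E14 replicate 3 was the highest of the E14 arrays, unlike the order seen for Dazl, Ddx4, Mael and Piwil2. The difference between AG-haESC and E14 was 0.10 ± 0.27 (adjusted p = 0.839), and the ranges overlapped. Of the 3 other microrchidia genes tested, 1, Morc4, was called higher in AG-haESC, as were 4.58% of all genes. It differed by 1.41 ± 0.36 (adjusted p = 0.0221), and without E14 replicate 3 by 0.87 ± 0.24 (0.0244), under 2-fold. Its mean in MEF, 9.27, was above the 8.86 of AG-haESC and the 7.45 of E14. Morc3 stood at 11.98 ± 0.24 in AG-haESC and 11.97 ± 0.063 in E14. Morc2a was lower in AG-haESC by -0.58 ± 0.13, which passed the adjusted p (0.0112) and not 2-fold. Without E14 replicate 3 the difference of Morc2a was -0.60 ± 0.14 (adjusted p = 0.0122).

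**Figure D2:**
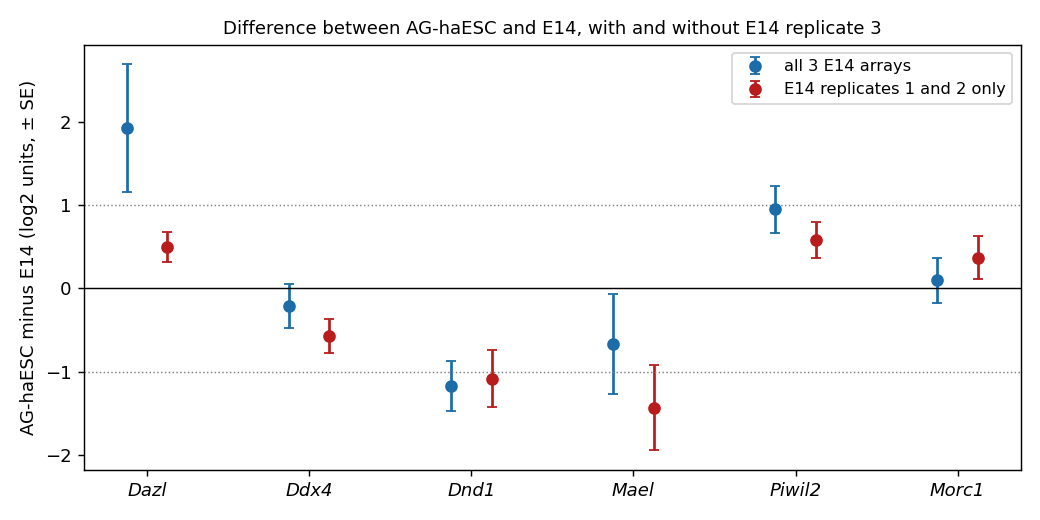
Difference between AG-haESC and E14 in log2 units (y axis, points with standard errors of the limma fit) for the 6 genes tested (x axis), blue with all 3 E14 arrays and red with E14 replicates 1 and 2 only; dotted lines mark 2-fold. Without E14 replicate 3 Dazl stands at 0.50 and Mael at -1.43, against 1.92 and -0.67 with it, while Dnd1 stands at -1.08 and -1.17.

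The median difference of the 6 genes between AG-haESC and E14 was -0.06, against -0.08 over all genes tested. At an unadjusted p below 0.05, 2 of the 6 were on the higher side and 1 on the lower side. The share of all genes at this unadjusted threshold was not counted, but it is at least the 15.9% past the adjusted p. Unadjusted counts here and below are therefore descriptions that set no list apart. The AG-haESC and E14 arrays did not overlap for 3 of the 6, against 22.6% of all genes. With E14 replicate 3 left out they did not overlap for 5 of the 6, Dazl and Piwil2 above E14 and Ddx4, Dnd1 and Mael below it, against 41.2% of all genes. In that setting only Dnd1 passed the test, and the other 5 had adjusted p between 0.0688 and 0.344.

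Between the stem cells and MEF every tested gene was called higher in the stem cells, in AG-haESC where 19.7% of all genes were called higher and in E14 where 20.9% were. Called lower were 22.5% and 21.3% of all genes. Both comparisons share the MEF arrays. All MEF signals lay below the array median, so each fold is a lower bound with MEF set at the array medians. Dazl was at least 131-fold higher in AG-haESC and at least 34.8-fold higher in E14 than in MEF. On its other probe set, 1449502_at, these bounds were 73.7-fold and 15.5-fold. Morc1 was at least 56.9-fold and 53.1-fold higher, Mael at least 14.5-fold and 23-fold and Ddx4 at least 11.8-fold and 13.7-fold, in AG-haESC and in E14 in this order. Piwil2 was at least 7.65-fold higher in AG-haESC and 3.96-fold higher in E14, and Dnd1 at least 3.32-fold and 7.48-fold. The bounds of E14 hold E14 replicate 3. Taken apart, the bound for Dazl was 4.87-fold in E14 replicate 3 and 93.1-fold in E14 replicates 1 and 2, and that for Mael 8.03-fold and 39-fold. For Ddx4 it was 8.37-fold and 17.6-fold and for Piwil2 2.37-fold and 5.12-fold, while for Morc1 it was larger in replicate 3, 76.8-fold and 44.2-fold, as for Dnd1, 8.49-fold and 7.02-fold. The bounds depend on how bright a probe set is and give no order between genes. AG-haESC were grown on feeder cells. The linear signals of 11 fibroblast markers were summed, and the log2 of the sum was 13.30 to 14.20 in AG-haESC and 13.14 to 13.51 in E14. In MEF it was 17.55 and 17.27. Most of that sum in the stem cells is Vim, an intermediate filament gene at 12.83 to 13.35 in each of their arrays. Without Vim the log2 of the sum was 11.26 to 13.10 in AG-haESC and 9.98, 10.24 and 10.76 in E14 replicates 1, 2 and 3, against 17.30 and 17.02 in MEF. Of these markers 7 were called higher in AG-haESC than in E14, as were 4.58% of all genes. Among the 7 was Col1a2, a fibrillar collagen, by 2.69 ± 0.47 (adjusted p = 0.00303). The other 4 were not called, among them Pdgfrb at -0.72 ± 0.49 (adjusted p = 0.358). Without E14 replicate 3 Pdgfrb was called lower, by -1.37 ± 0.41 (adjusted p = 0.0362). The 6 germ cell genes themselves were below the array median in both MEF arrays. The part of feeder cells in the differences between AG-haESC and E14, of these 6 or of other genes, was not tested.

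E14 replicate 3 was the lowest of the 8 stem cell arrays for 4 of the 6 genes, Dazl, Ddx4, Mael and Piwil2, as it was for 22.8% of all genes. Relative to the mean of E14 replicates 1 and 2 it was lower by -4.26 log2 units for Dazl (19.1-fold), -2.28 for Mael (4.86-fold), -1.11 for Piwil2 and -1.07 for Ddx4, and it was higher by 0.80 for Morc1 and 0.27 for Dnd1. On the other Dazl probe set, 1449502_at, it was lower by -3.25 (9.53-fold). Of all genes, 12% were at least 2-fold lower and 8.38% at least 2-fold higher in this array, and 0.264% were as low as Dazl or lower. The other E14 arrays differed from each other by 0.08 to 0.41 for these 6 genes. A single array gives no test of this departure.

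The other genes of the piRNA pathway showed the same array apart. Of 19 tested, 12 were at least 2-fold lower in E14 replicate 3 than in the other E14 arrays and 1, Tdrd12, was at least 2-fold higher. Over all genes these shares were 12% and 8.38%, here and for the lists below. Gtsf1, a zinc finger partner of PIWI proteins, read 8.65 in E14 replicate 3 against 11.75 and 11.67 in replicates 1 and 2. Gpat2, a mitochondrial protein of piRNA production, read 7.50 against 10.38 and 10.37. Piwil1, the PIWI protein of meiotic and later male germ cells, read 1.59 against 6.57 and 5.91, which are themselves close to the array medians. Of 22 genes whose products repress germline genes, 0 were at least 2-fold lower and 3 (13.6%) at least 2-fold higher. Chosen after their values were seen, the DNA methyltransferases Dnmt3a and Dnmt3b stood at 12.60 and 13.83 in E14 replicate 3, against 10.65 and 12.12 in replicate 1 and 10.35 and 11.73 in replicate 2. The remaining 1 of the 3, Cbx3, read 7.03 against 5.12 and 6.55, close to the array medians. From the same list, Dnmt1, Uhrf1 and Hells departed by -0.34, -0.08 and -0.27 in E14 replicate 3, and Dnmt3l by 0.86. The median departure of the list was 0.14, against -0.12 over all genes. Of 11 fibroblast markers, 7 (63.6%) were at least 2-fold higher and 2 (18.2%) at least 2-fold lower in E14 replicate 3. The sum of these markers without Vim was the highest of the E14 arrays. The part of any of these in the low signals of Dazl and Mael was not tested.

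**Figure D3:**
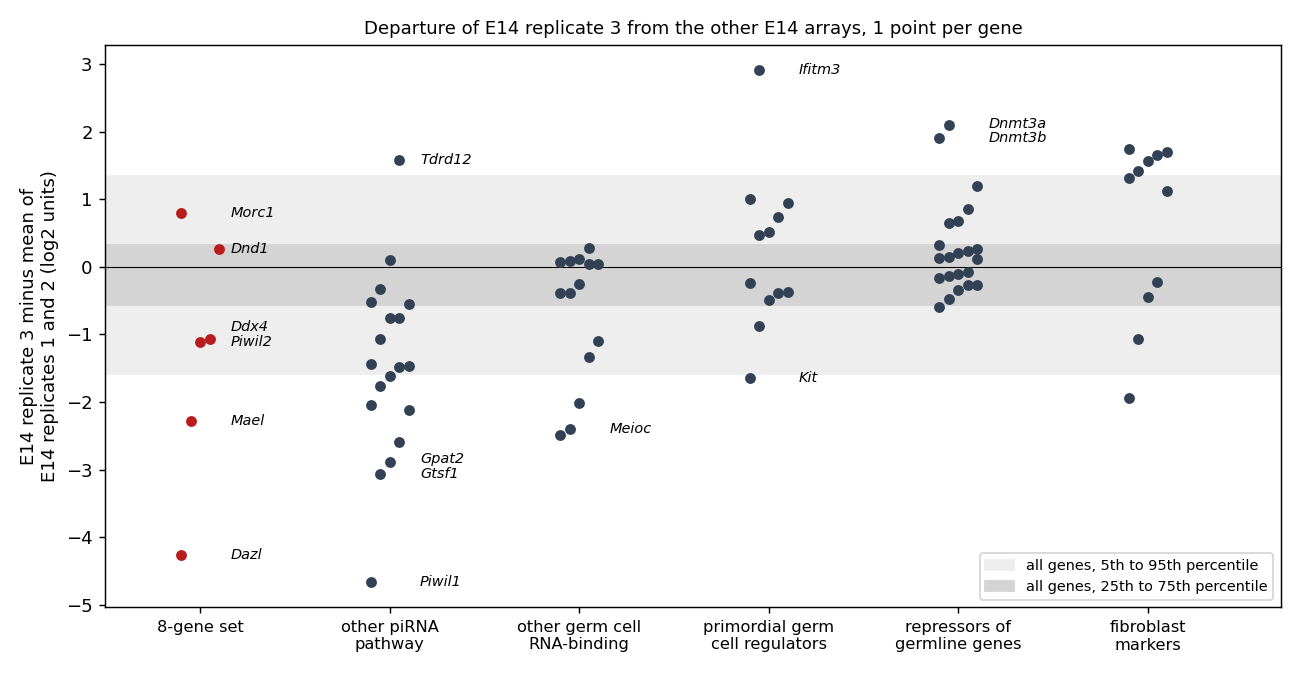
E14 replicate 3 minus the mean of E14 replicates 1 and 2 in log2 units (y axis), 1 point per gene, for the 6 tested genes in red and 5 other gene lists in dark grey (x axis), over bands for all 13251 genes. Dazl at -4.26 and Mael at -2.28 lie below the 5th percentile of all genes, -1.59, while Dnmt3a and Dnmt3b lie above the 95th, 1.34.

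Between AG-haESC and E14 the other piRNA pathway genes were called in both directions, 2 higher and 2 lower of 19 tested, with a median difference of 0.27 against -0.08 over all genes. Tex15, which takes part in piRNA-guided transposon silencing, was higher in AG-haESC at 10.50 ± 0.53 against 8.79 ± 1.2 in E14, a difference of 1.72 ± 0.45 (adjusted p = 0.0262), and it was still called without E14 replicate 3 at 1.01 ± 0.29. Tdrd7, a Tudor protein of germ granules, was higher by 1.21 ± 0.35 (adjusted p = 0.0394), which without E14 replicate 3 became 0.72 ± 0.27 and was no longer called (adjusted p = 0.0795). Its mean in MEF, 9.04, was above the 8.23 of AG-haESC and the 7.01 of E14. Tdrd5, another Tudor protein, was at least 2.14-fold lower in AG-haESC, where it lay below the array medians, with 4.50 ± 1.0 against 7.05 ± 0.37 in E14 (adjusted p = 0.0138). Exd1, a subunit of a piRNA-producing complex, was lower by -1.08 ± 0.31 (adjusted p = 0.0343), with a haploid mean of 5.95 that lies at the array medians and lines 3 and 4 below their own. Rnf17 and Gtsf1 had differences of 0.27 ± 0.33 and 0.32 ± 0.76, far from the threshold (adjusted p = 0.629 and 0.817), and Rnf17 read 10.01 in E14 replicate 3 against 11.49 and 11.47 in replicates 1 and 2. Without E14 replicate 3 the list had 2 higher and 3 lower and a median of -0.28 against -0.12 over all genes, so the sign of its median rests on that array. Against MEF, 13 of the 19 were higher in AG-haESC and none lower, and 15 were higher and 1 lower in E14. The shares over the whole tested set were 19.7% (higher) and 22.5% (lower) for AG-haESC, and 20.9% and 21.3% for E14. In each MEF array 15 of the 19 lay below the array median. For most of the list the passing of the filter on dim probe sets thus rests on the stem cell arrays. As with the 6 genes, these counts against MEF are a description and support nothing further.

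**Figure D4:**
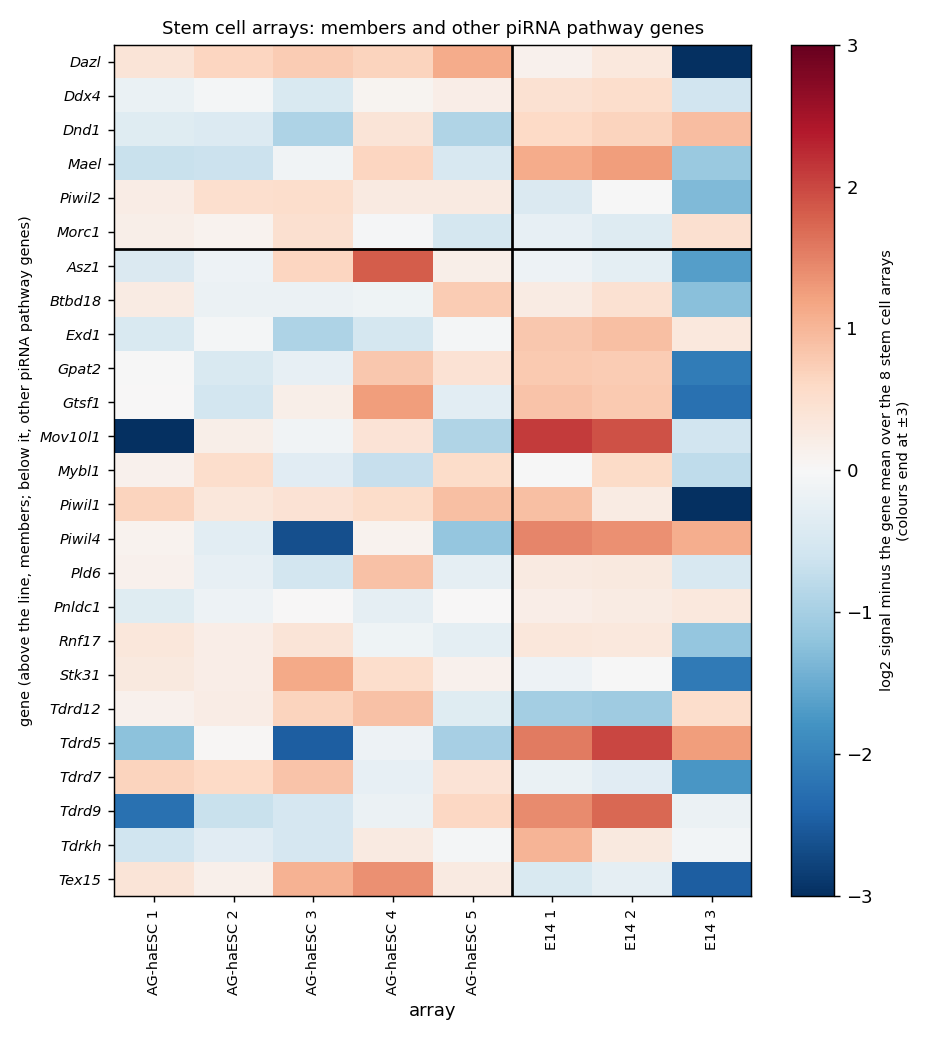
Log2 signal minus the gene's mean over the 8 stem cell arrays (colour, blue low and red high, ending at ±3) for the 6 tested genes above the line and 19 other piRNA pathway genes below it (rows) in AG-haESC lines and E14 arrays (columns). The E14 replicate 3 column is the lowest of its row for 4 of the upper genes and for 10 of the lower genes.

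Other RNA-binding genes, decay factors and repressors of germline genes gave no call between AG-haESC and E14. Of 14 other RNA-binding genes of germ cells none was called by limma in either direction, with 1 on each side at an unadjusted p below 0.05. Pum2, a repressor of translation that binds NANOS proteins, stood at 11.13 ± 0.052 in AG-haESC and 11.18 ± 0.060 in E14. Of 11 genes of messenger RNA decay and translation none was called either, with 1 on each side unadjusted. Of 22 repressors of germline genes none was called by limma, with 2 on the higher and 6 on the lower side unadjusted. Their median difference was -0.22, against -0.08 over all genes. Outside the naming rule given below, the repressors Hdac1 and Mga and the decay gene Cnot3 passed the adjusted p and not 2-fold. They differed by 0.75 ± 0.11, -0.46 ± 0.13 and -0.54 ± 0.13 (adjusted p = 0.00123, 0.0291 and 0.0188). Without E14 replicate 3, Dnmt3l, a cofactor of the DNA methyltransferases, was called higher in AG-haESC by 1.04 ± 0.32 (adjusted p = 0.042), and Cpeb1, which regulates polyadenylation of stored messenger RNAs, lower by -1.49 ± 0.43 (adjusted p = 0.0322).

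Of 12 regulators of primordial germ cells 3 were higher and 1 was lower in AG-haESC than in E14, where 4.58% and 3.74% of all genes were. The count was 1 higher and 0 lower without E14 replicate 1, E14 replicate 2 or AG-haESC line 1, and 1 higher and 1 lower without AG-haESC line 2. Prdm14, which represses somatic programmes in germ cell precursors, stood at 11.05 ± 0.40 in AG-haESC and 9.63 ± 0.28 in E14, and Dppa3, a protector of maternal DNA methylation patterns, at 12.34 ± 0.59 and 10.51 ± 0.44 (differences of 1.43 ± 0.37 and 1.83 ± 0.35, adjusted p = 0.0231 and 0.00555). Ifitm3, a membrane protein of early germ cells, was higher by 2.38 ± 0.62 (adjusted p = 0.0238). In E14 replicate 3 it read 13.30 against 10.45 and 10.34 for replicates 1 and 2, and its mean in MEF was 14.12, so these fibroblasts carried it as well. Lin28a, a let-7 regulator, was lower by -1.57 ± 0.42 (adjusted p = 0.0277), and by -1.24 ± 0.45 without E14 replicate 3, no longer called (0.0719). Nanog was higher by 0.87 ± 0.12, which passed the adjusted p (0.00075) and not 2-fold. Without E14 replicate 3 its difference was 0.74 ± 0.11 (adjusted p = 0.00112).

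Among the haploid lines the spread of the 6 genes lay on both sides of the median over all genes. Their SD over the 5 lines was 0.14 for Piwil2, 0.26 for Dazl and for Ddx4, 0.37 for Morc1, 0.53 for Dnd1 and 0.54 for Mael, against a median of 0.29 over all genes. No line was highest or lowest throughout. Line 4 was highest for Dnd1 and Mael, line 5 for Dazl and Ddx4, and line 3, with the Actin-EGFP transgene, for Piwil2 and Morc1. Line 1 was lowest for Dazl, Mael and Piwil2, line 3 for Ddx4 and Dnd1 and line 5 for Morc1.

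The genes whose pattern over the 10 arrays lay nearest to each of the 6 were ranked by the root mean square difference of mean-centred log2 signals, out of 13250 others, a measure that is set mainly by the step between stem cells and MEF. Nearest to Ddx4 were Myl7, Spint1 and Rfx2, at 0.19, 0.36 and 0.37 log2 units. Dnd1 lay nearest to Cgn, Wdr31 and Acbd7, at 0.21 to 0.33, and Piwil2 to Llgl2, Nfatc2ip and Jade3, at 0.26 to 0.28. Mael had Gm13261 at 0.55, the piRNA pathway gene Gtsf1 at 0.68 and Dmrt1 at 0.70. Morc1 lay nearest to Tdgf1, Pou5f1 and Mageb16, at 0.66, 0.78 and 0.85. Dazl had the most distant neighbours of the 6, Trap1a at 1.3 and Tex13b and Mageb16 at 1.4.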

How the data were processed

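The authors deposited linear signal intensities, and the submitters' processing notes name MAS5 as the tool. In each array the mean after trimming 2% at both ends came to 500, so values are relative within an array and a change in total RNA per cell cannot be seen. Detection calls were not used here.

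All tests used log2 of the deposited signal. The 45101 probe sets comprised 34945 with a single gene symbol, 932 with more than 1, 9160 without a listed symbol and 64 controls. Those kept exceeded the array's own median (55.9 to 68.0 on the linear scale) in at least 2 arrays, which left 27505, and the brightest kept probe set of each gene gave 13251 genes. The test was that of limma 3.58.1 (R 4.3.3), in 1 fit of 3 group means over all 10 arrays with a variance trend and 7 residual degrees of freedom. P-values are two-sided and adjusted by Benjamini-Hochberg over all genes of a comparison. A gene is called higher or lower at an adjusted p below 0.05 and at least 2-fold. The fit was tested on simulated data. Hoechst 33342 was used at 15 µg/ml per the labels. The number of arrays limits the precision.

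The genes and lists were chosen with earlier results of these data known. All 8 genes are named, and of each other list up to 4 called genes with the largest differences and up to 2 uncalled genes with the highest signals were eligible, with those outside this rule marked or given only as values of E14 replicate 3 or of a fit without it. Alternatives were other scales, filters, normalizations, probe set rules, variance settings, array weights, 2-group fits, each array left out and a replicate block.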

Additional observations from a re-analysis of the deposited data

Results flagged for a closer look

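In 45 sets of 5 AG-haESC lines, one for each probe set of the 8 genes and each other gene eligible to be named, 4 had a line far from the rest, and chance flags about 1 in 20. None was a probe set of the 8 genes. The gap to the nearest line, as a share of the range, was 0.724 for Pabpc1, with line 4 at 15.18 and the others at 14.73 to 14.85. It was 0.712 for Prdm14, with line 4 at 10.37 and the others at 11.10 to 11.40. It was 0.732 for Pou5f1, with line 5 at 13.35 and the others at 13.56 to 13.63. It was 0.718 for Gdf9, an oocyte growth factor, with line 5 at 6.24 and the others at 5.50 to 5.71, close to the array medians.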

How the results depend on the processing

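All 6 genes stayed higher than MEF, in AG-haESC and in E14, under every alternative run. Between AG-haESC and E14, the number lower was 2 with array weights (main value 1), and with each array left out in turn it ranged from 0 to 1 and the number higher from 0 to 1. Morc1, never called, turned to -0.01 without AG-haESC replicate 3 and to -0.07 without E14 replicate 2, in a range that ended at 0.37 without E14 replicate 3. Of the other piRNA pathway genes (2 higher, 2 lower), 1 was lower with a floor at the array median, with no filter and with the stricter filter, and 6 were lower with array weights. The number higher was 1 with no filter and in the 2-group fit and 0 with no trend. Leaving out single arrays gave 0 to 2 higher and 0 to 3 lower. Of the other germ cell RNA-binding genes 2 were lower with array weights and 0 to 1 with an array left out. With array weights 6.57% of all genes were called lower in AG-haESC than in E14, against 3.74% in the main fit. E14 replicate 3 had the lowest weight, 0.193, and lower calls rose over all genes too in that setting. Of the primordial germ cell regulators (3 higher, 1 lower), 0 were lower with no trend, and single arrays left out gave 1 to 3 higher and 0 to 1 lower. Of the repressors 0 to 1 were higher. The cause of these moves was not tested. Of these fits, only those with the stricter filter, with 2 groups or with an array left out hold fewer genes or arrays. For E14 against MEF, which share replicate numbers 1 and 2 in the labels, the deviations of same-numbered arrays correlated at r = -0.026 across genes, so the numbers do not show pairing. With the replicate block 6 genes were higher, as without it, over 4 arrays, and of all genes 2766 were higher and 2849 lower, against 2829 and 2867 in the same arrays unpaired, an alternative chosen after seeing the data, as were the marker lists without E14 replicate 3, the sum without Vim and the bounds with E14 replicate 3 apart. Background makes up much of a dim signal, which limits Tdrd1, Piwil1, Tdrd5, Exd1 in AG-haESC, Gata4 and the MEF values of the 8 genes.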

Other observations

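Among markers of later germ cells, Stra8, Sohlh2, Zp3 and Ooep were read above the array median in the stem cells. The other tested spermatogonia and spermatocyte markers averaged 4.98 (Gfra1), 5.91 (Ret), 5.80 (Sycp2) and 6.57 (Tex101) in AG-haESC. The oocyte markers Figla and Gdf9 averaged 4.63 and 5.76 there, against array medians of 5.81 to 6.09. In E14 the means of these other markers also lay near or below the array medians. Gfra1 was brighter in MEF, at 8.87. Listed markers that were not tested had not passed the filter on dim probe sets. Stra8, which starts the meiotic programme, stood at 10.83 ± 0.64 in AG-haESC and 11.17 ± 3.1 in E14 (SD, n = 5 and n = 3), where E14 replicates 1, 2 and 3 read 12.89, 13.02 and 7.60, and Sohlh2, a transcription factor of germ cells, read 11.57, 11.49 and 8.36 in the same arrays. Without E14 replicate 3, Stra8 was called lower in AG-haESC by -2.12 ± 0.59 (adjusted p = 0.0259). Of the 6 spermatogonia and spermatocyte markers tested, 12 being listed, none was called by limma with all arrays, and 1 lay on each side at an unadjusted p below 0.05. Of 4 oocyte markers tested, 10 being listed, Zp3, a protein of the egg coat, was higher in AG-haESC at 8.41 ± 0.41 against 7.10 ± 0.28 in E14 (adjusted p = 0.0118). Ooep, an oocyte protein, averaged 13.06 ± 0.11 in AG-haESC against 12.07 ± 0.22 in E14, and the difference, 0.99 ± 0.22, passed the adjusted p (0.0108) and not 2-fold. It was called higher without E14 replicate 3, by 1.12 (adjusted p = 0.00761). Of 5 endoderm markers Afp was higher in AG-haESC, by at least 2.28-fold (adjusted p = 0.00171). Gata4, an endoderm transcription factor outside the naming rule, was called higher as well without E14 replicate 3, by 1.42 (adjusted p = 0.0486), although all E14 arrays and AG-haESC lines 1, 2 and 3 lay below their array medians. Of 4 trophoblast markers none was called by limma, with 0 at an unadjusted p below 0.05.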
